A study of Arabidopsis thaliana with 15 samples.

Results

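In 4-day-old Arabidopsis thaliana seedlings, 80 of 33602 counted genes met 4 conditions at once and are described here. Their mean level in the Col-0 wild type was at least 1.5 times as high after 6 h of UV-B as in white light. Without any UV-B, their mean level was also at least 1.4 times as high in the pif4-101 pif5-1 double mutant as in wild type. In uvr8-6 seedlings the mean under UV-B was at most 1.3 times that in white light, and the wild-type mean under UV-B was at least 3 CPM. Here CPM is a gene's read count scaled to the sum of counts of its library, and 0.5 CPM was added to each mean of 3 libraries before a ratio was taken. These same values chose the genes, so the contrasts named above describe the 80 genes and test nothing about them. The other 3 conditions were met by 945 genes in all, and pif4-101 pif5-1 divides them into the 80 genes, 55 genes that were lower by at least 1.4 times and 810 genes in between.

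UVR8 is the photoreceptor by which plants sense UV-B, and on absorbing it the protein acts with the ubiquitin ligase COP1 to change gene expression. PIF4 and PIF5 are transcription factors that promote elongation growth, that bind E-box sequences such as the G-box and the PBE-box, and whose protein becomes less abundant when UVR8 is active. PIFs also hold back greening in the dark: seedlings that lack several of them express genes of chlorophyll synthesis and chloroplast development early. Many chloroplast proteins are encoded in the nucleus, and chloroplast genes are read by a nuclear-encoded phage-type RNA polymerase and by a plastid-encoded polymerase that works with a set of nuclear-encoded associated proteins.

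The samples formed 5 groups of 3 libraries, each from 30 whole seedlings on an independent plate. Wild-type Col-0 seedlings under UV-B, pif4-101 pif5-1 in white light, wild type in white light, uvr8-6 under UV-B and uvr8-6 in white light were sampled, and both mutants are in the Col-0 background. All seedlings grew in continuous low white light of 3.6 µmol m-2 s-1 at 22 °C on medium with 1% sucrose, and the UV-B groups then received 6 h of narrowband UV-B at 0.06 mW cm-2. The double mutant was not sampled under UV-B here, so no value is given for the response of these genes to UV-B in it. The libraries held 19.3 to 30.4 M counted reads. UVR8 reads were at 15.7 to 17.5 CPM in uvr8-6 under UV-B and at 14.8 to 20.7 CPM in white-light uvr8-6, against 73.9 to 108.5 CPM in the wild-type libraries. PIF5 reads were at 4.51 to 5.30 CPM in pif4-101 pif5-1, against 81.6 to 141.1 CPM in wild type in white light. PIF4 reads did not separate these groups, with 79.9, 78.0 and 97.0 CPM in pif4-101 pif5-1, against 141.2, 65.7 and 174.4 CPM in wild type in white light, so they leave the PIF4 lesion unchecked. The 4 markers of green tissue were high in every library. Their summed level was 17765 to 22965 CPM in wild type under UV-B and 19763 to 24654 CPM in pif4-101 pif5-1, against 15155 to 17068 CPM in wild type in white light, with no overlap of either with white-light wild type. In uvr8-6 it was 13243 to 19294 CPM under UV-B and 13631 to 16431 CPM in white light. Against white-light wild type, edgeR called 1 of these 4 genes higher in wild type under UV-B and none in pif4-101 pif5-1 (adjusted p under 0.05). The 3 root markers summed to 5910 to 9836 CPM in wild type under UV-B and 3029 to 6607 CPM in pif4-101 pif5-1, against 6073 to 9080 CPM in wild type in white light. Against white-light wild type, edgeR called 1 of the 3 higher under UV-B and none in the double mutant. Single root markers went different ways: 2 were called higher and 1 lower in wild type under UV-B than in pif4-101 pif5-1. The 3 seed markers summed to 0.342 to 0.783 CPM in wild type under UV-B and 1.07 to 11.8 CPM in pif4-101 pif5-1, against 1.19 to 7.99 CPM in wild type in white light, and to at most 60.7 CPM in any library. The part of tissue make-up in the levels below was not tested, and in whole seedlings more cells of a type and more RNA per cell cannot be told apart.

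In PIF4 reads and in the median of the 80 genes, the replicate 2 library was the highest or lowest of every group. For PIF4 in pif4-101 pif5-1 it lay close to replicate 1. Over all tested genes the root mean square log2 deviation from the group mean was largest in replicate 2 in white-light wild type (0.30). The same held in uvr8-6 under UV-B (0.31) and in white light (0.29). Replicate 1 deviated most in wild type under UV-B (0.25, against 0.23 in replicate 2) and in pif4-101 pif5-1 (0.30, against 0.28). PIF4 had 34.7, 86.8 and 65.9 CPM in wild type under UV-B, and in uvr8-6 it had 55.3, 99.4 and 62.3 CPM under UV-B, against 144.7, 64.1 and 167.0 CPM in white light. Replicate 2 was thus the lowest white-light library of both genotypes and the highest UV-B library of both. IAA29, an auxin-response gene that PIFs activate, had 32.8, 9.23 and 41.8 CPM in the 3 white-light libraries of wild type and showed the same order. The 80 genes moved the other way: replicate 2 was the highest of the 3 white-light wild-type libraries for 54 of them (67.5%, against 47.3% of all genes with at least 3 CPM). It was the lowest of the 3 uvr8-6 UV-B libraries for 62 (77.5%, against 27.9%) and the lowest of the 3 pif4-101 pif5-1 libraries for 58 (72.5%, against 37.2%). The choice used all these libraries, and its limit on the uvr8-6 ratio favoured genes low in a uvr8-6 UV-B library. These shares are thus in part set by the choice and describe the set. Relative to the white-light wild-type mean, the median member stood at 0.28, -0.03 and 0.34 on the log2 scale in the uvr8-6 UV-B libraries, against -0.15, 0.15 and -0.10 in the uvr8-6 white-light libraries. The results below are therefore also given without all 5 replicate 2 libraries, a choice made after the values were seen. The same removal for replicate 1 or replicate 3 was not run. In wild type the UV-B marker HY5, a transcription factor of light responses, had 66.7, 63.3 and 57.9 CPM under UV-B, against 14.3, 24.0 and 15.2 CPM in white light, so replicate 2 stood with the other libraries of its light condition there. In uvr8-6, which lacks that response, HY5 did not separate the light conditions, with 21.7, 18.3 and 21.1 CPM under UV-B, against 18.2, 20.8 and 19.3 CPM in white light. Whether replicate 2 libraries were exchanged between light conditions in uvr8-6, or were handled or harvested differently, was not tested, and an exchange would alter the uvr8-6 means and ratios below.

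**Figure D1:**
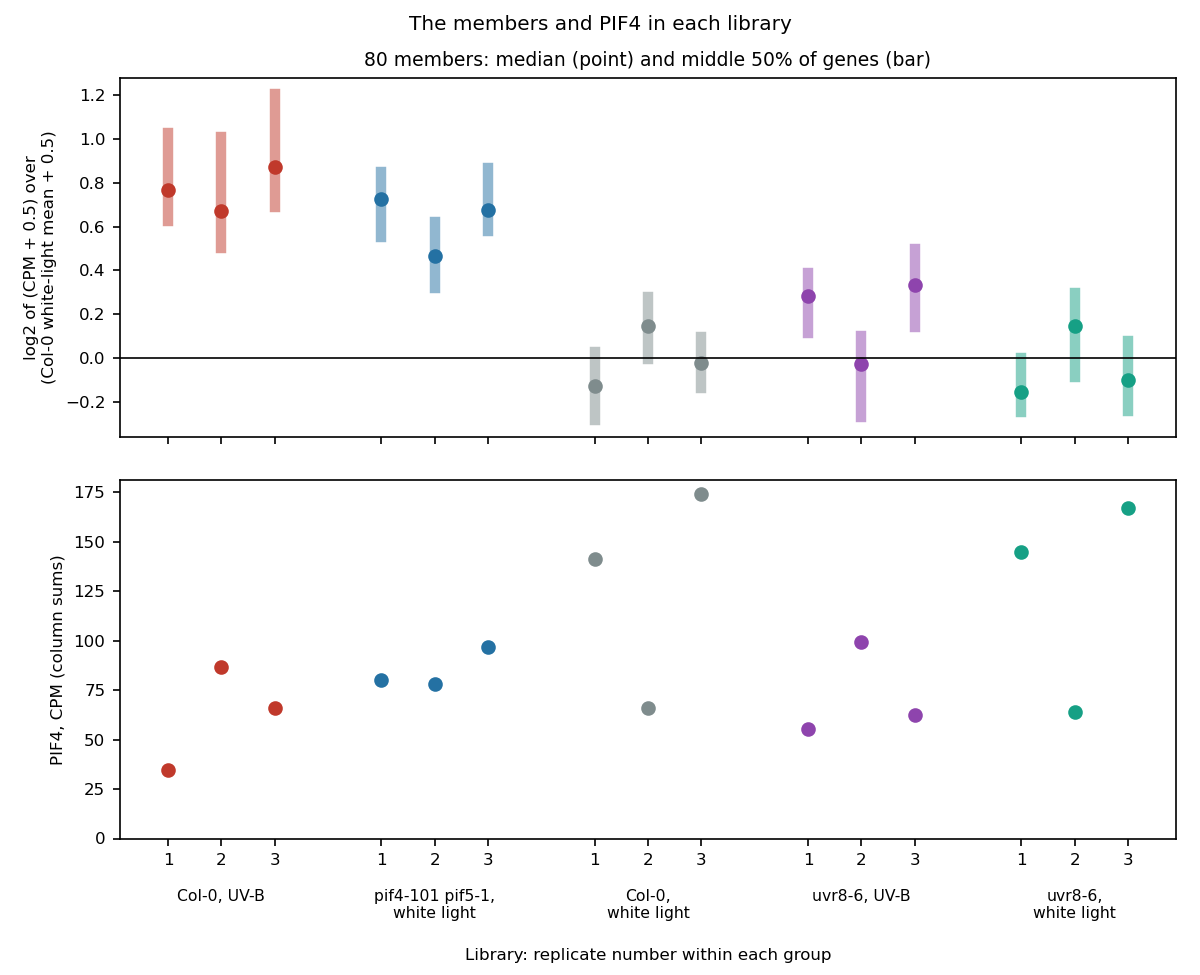
The upper panel plots, for each library, the median (point) and the middle 50% (bar) of the 80 genes' log2 ratio of CPM plus 0.5 to the white-light wild-type mean plus 0.5, and the lower panel plots PIF4 in CPM for the same libraries. In the upper panel the replicate 2 library lies below the other libraries of its group in wild type under UV-B, pif4-101 pif5-1 and uvr8-6 under UV-B, and above them in both white-light groups of wild type and uvr8-6.

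The 80 genes spanned a wide range of levels, from 3.03 to 519 CPM in wild type under UV-B with a median of 21.5 CPM, and 10 of them exceeded 100 CPM. Most lay near the limits that chose them: the ratio of UV-B to white light in wild type ran from 1.50 to 12.8 with a median of 1.67, and the ratio of pif4-101 pif5-1 to wild type from 1.41 to 3.50 with a median of 1.53. A ratio of at least 2 was reached by 21 genes under UV-B, by 7 in the double mutant and by 4 in both, which were BCB, CGA1, AT4G29030 and UGT85A1. On this scale the median ratio of all 16244 genes with at least 3 CPM was 0.908 under UV-B and 0.960 in the double mutant, while edgeR's scaling by TMM put the median log2 fold change of all tested genes at -0.01 and 0.00. In 14 genes the double mutant's mean was above the UV-B mean. In uvr8-6 the ratio of UV-B to white light ran from 0.583 to 1.297 with a median of 1.17, and 35 genes were at 1.2 or more. The limits cut through a continuous range: PTAC15 entered at a double-mutant ratio of 1.41 while AT5G51110 at 1.398 and PPD5 at 1.396 did not, and AT1G29070 entered at a UV-B ratio of 1.50 while AT3G08740 at 1.49 did not. On the side of uvr8-6, PTAC15 at 1.297 was inside and RBCS1A at 1.307 was outside. At the level limit, AT2G39560 with 3.03 CPM was inside and AT3G56330 with 2.69 CPM was outside. The set itself depends on single libraries: the same conditions give 187 genes, 69 of them among the 80, without white-light wild-type replicate 2, and 49 genes, 46 of them among the 80, without uvr8-6 UV-B replicate 2. Without all 5 replicate 2 libraries they give 76 genes, of which 27 are among the 80 (33.8% of the 80 and 35.5% of the 76).

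**Figure D2:**
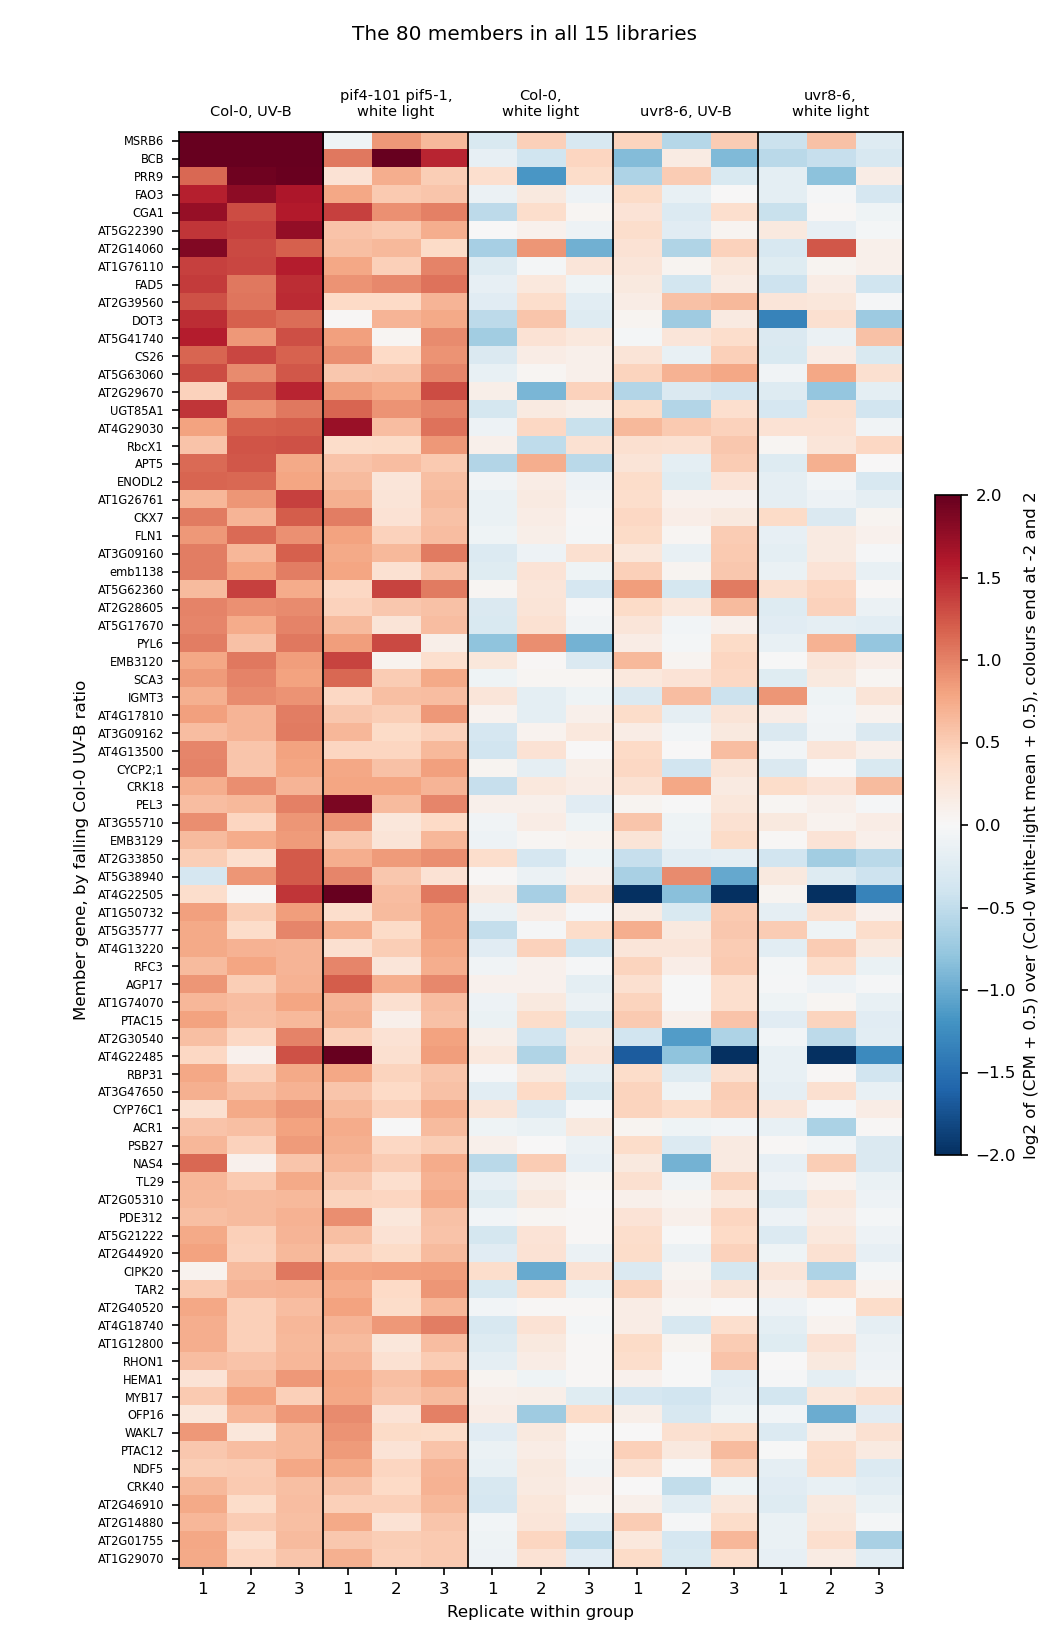
The heat map has 1 row for each of the 80 genes and 1 column for each of the 15 libraries, grouped by genotype and light, and colour gives the log2 ratio of CPM plus 0.5 to the white-light wild-type mean plus 0.5. The wild-type UV-B and pif4-101 pif5-1 columns are high by the choice of genes, with the lowest median, 0.47, in replicate 2 of the double mutant.

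Calls were made with edgeR's quasi-likelihood test at an adjusted p under 0.05 over the 20833 genes with enough reads, which included all 80. Under UV-B in wild type edgeR called 72 of the 80 higher, where 16.1% of all genes were called higher, and none lower, where 11.3% were. In pif4-101 pif5-1 it called 37 higher, where 1.72% of all genes were, and none lower, where 3.54% were. These 37 were all among the 72. The 8 genes called in neither were PYL6, NAS4, CIPK20, OFP16, AT4G22505, AT4G22485, AT5G38940 and AT2G01755, chosen for naming after their values were seen. PYL6, an abscisic acid receptor, had 9.13, 6.57 and 9.36 CPM in wild type under UV-B and 7.91, 11.3 and 4.60 CPM in pif4-101 pif5-1, against 2.22, 8.51 and 1.96 CPM in wild type in white light. Replicate 2 in white light was as high as the UV-B libraries there. Without the replicate 2 libraries PYL6, NAS4 and AT2G01755 were called in both contrasts, with PYL6 at 2.30 ± 0.31 under UV-B, against 1.203 ± 0.50 with them, and at 1.62 ± 0.31 in the double mutant (edgeR, adjusted p = 0.000187 and 0.00629 without them). AT4G22505 and OFP16 were then called in the double mutant, and the other 3 of the 8 in neither. The 3 libraries lay wholly above those of white-light wild type in 69 genes under UV-B (14.3% of all genes) and in 67 genes in the double mutant (6.35%), and in both for 58 genes, where 2.00% of all genes were (416 of 20833). Without the replicate 2 libraries edgeR called 74 members higher under UV-B (15.7% of all genes) and 68 in pif4-101 pif5-1 (6.38%). The 37 calls in the double mutant depend on single libraries, as do the calls over all genes. Without its replicate 1 or 3, 9 and 12 were left, while higher calls over all genes went from 358 to 86 and 93. Without white-light wild-type replicate 1 or 3, 11 and 11 were left, with 80 and 116 over all genes. DESeq2 called 57 of the 80 and 731 over all genes.

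Roles were assigned by hand after the values were seen, and not exhaustively. The role with the most members assigned, 9, was the machinery that reads and processes the chloroplast genome. SCA3 (AT2G24120, chr2:10248851-10254641, minus strand) encodes the chloroplast phage-type RNA polymerase. SCA3 had 26.1, 29.1 and 25.3 CPM in wild type under UV-B and 32.2, 20.5 and 24.4 CPM in pif4-101 pif5-1, against 13.5, 14.7 and 14.7 CPM in wild type in white light. All UV-B and double-mutant libraries were above all white-light wild-type libraries for this gene. Its log2 fold change was 1.07 ± 0.14 under UV-B and 0.91 ± 0.14 in the double mutant (edgeR, SE, adjusted p = 6.37e-05 and 0.00322). Proteins that associate with the plastid-encoded polymerase included PTAC12 (AT2G34640, chr2:14581835-14584797, minus strand), also called HEMERA, PDE312 (AT3G48500, chr3:17962080-17965723, plus strand), also called PTAC10, and FLN1, a fructokinase-like protein. PTAC12 had 34.9, 36.8 and 37.6 CPM in wild type under UV-B and 43.3, 29.0 and 35.8 CPM in pif4-101 pif5-1, against 22.0, 26.5 and 23.1 CPM in wild type in white light. Every UV-B and double-mutant library was above the white-light wild-type libraries, and replicate 2 was the lowest of the double mutant and the highest of white-light wild type. PDE312 had 27.3, 27.6 and 29.0 CPM in wild type under UV-B and 34.4, 20.9 and 26.9 CPM in pif4-101 pif5-1, against 17.0, 18.3 and 18.0 CPM in wild type in white light. FLN1 had 19.5, 23.7 and 20.3 CPM in wild type under UV-B and 18.8, 14.6 and 16.4 CPM in pif4-101 pif5-1, against 9.82, 11.5 and 10.2 CPM in wild type in white light. Both again had the lowest double-mutant value in replicate 2, still above every white-light wild-type library. PDE312 was called in the double mutant at a log2 fold change of 0.69 ± 0.15 (edgeR, adjusted p = 0.0198).

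After transcription come RNA processing and translation, and here stood the most abundant of the 9. RBP31 (AT4G24770, chr4:12765761-12769419, minus strand), a chloroplast RNA-binding protein, reached 493, 396 and 486 CPM in wild type under UV-B and 493, 391 and 420.2 CPM in pif4-101 pif5-1, against 281, 329 and 250.2 CPM in wild type in white light. emb1138 (AT5G26742, chr5:9284557-9289003, minus strand), the DEAD-box helicase RH3 that helps splice chloroplast introns, had 417, 359 and 414 CPM in wild type under UV-B and 354, 254 and 304 CPM in pif4-101 pif5-1, against 173, 248 and 192 CPM in wild type in white light. For both genes all UV-B and double-mutant libraries were above white-light wild type, yet edgeR did not call either in the double mutant: the log2 fold change was 0.66 ± 0.19 for RBP31 (adjusted p = 0.0600) and 0.64 ± 0.18 for emb1138 (adjusted p = 0.0521). Without the replicate 2 libraries it was 0.81 ± 0.15 for RBP31 and 0.89 ± 0.11 for emb1138 (edgeR, adjusted p = 0.00557 and 0.000649). RHON1, which processes plastid RNA, PTAC15, which was found in plastid transcription complexes, and RFC3, a plastid ribosomal protein S6-like gene, complete the group. Over the 9 genes the UV-B ratios ran from 1.52 to 1.97 and the double-mutant ratios from 1.41 to 1.77. All 9 were called under UV-B and 6 in the double mutant.

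Of 13 genes for proteins associated with the plastid-encoded polymerase, a list drawn up after the members were seen, 5 met the UV-B ratio, 4 the double-mutant ratio and 3 both. Of all 16244 genes with at least 3 CPM, 1466 met the UV-B ratio, 382 the double-mutant ratio and 129 both. The 3 are members and were known when the list was made, so its counts are a description. The median ratio over the 13 was 1.43 under UV-B and 1.35 in the double mutant, above the 0.908 and 0.960 of all genes. None of the 6 sigma factors, which direct the same polymerase to its promoters, met the double-mutant ratio, although 4 met the UV-B ratio. The double-mutant ratio was rarely met over all genes, so its absence in 6 genes says little. Their median ratios were 1.64 under UV-B and 1.25 in the double mutant, also above those of all genes. SIG5, a sigma factor induced by light and stress, had a ratio of 5.19 under UV-B and 1.31 in the double mutant.

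**Figure D3:**
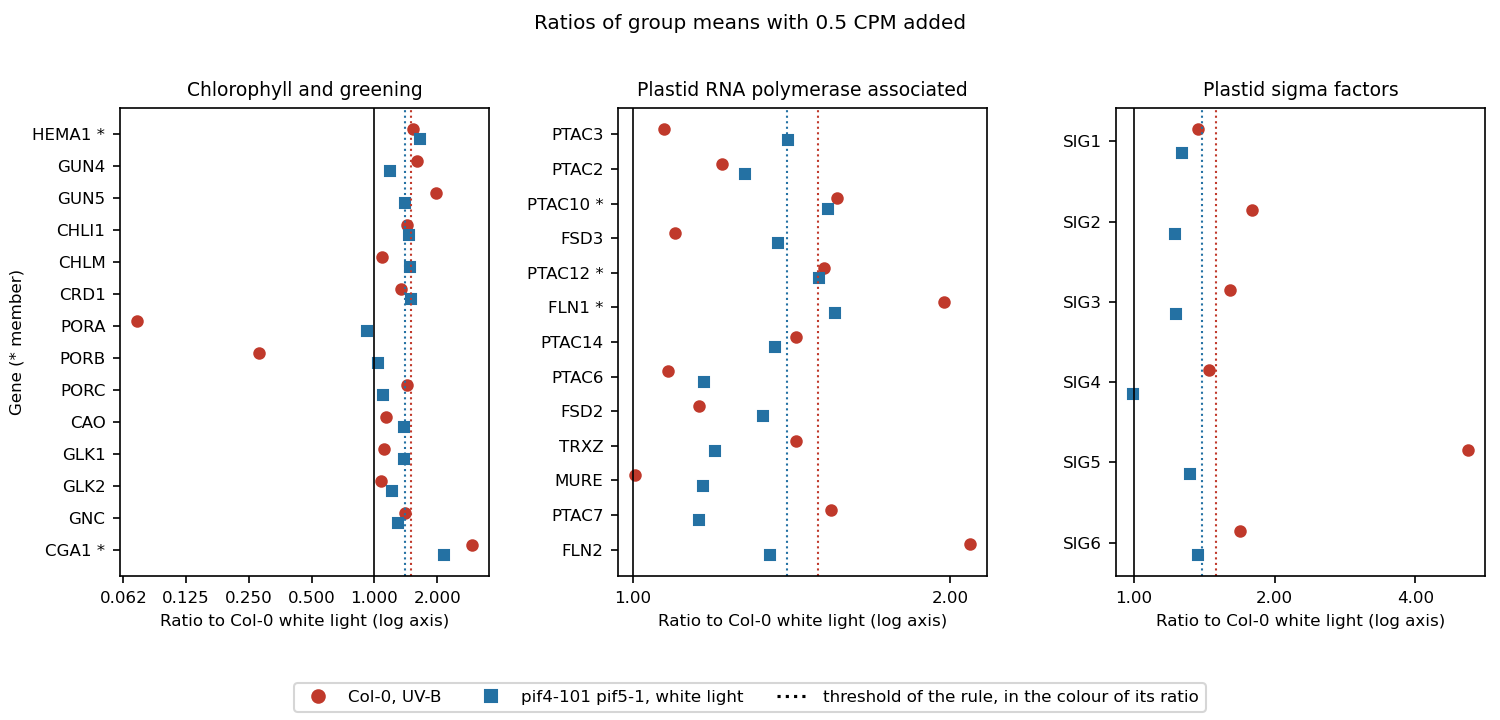
For each gene of 3 lists the ratio of wild type under UV-B (circles) and of pif4-101 pif5-1 (squares) to wild type in white light is plotted on a log axis, dotted lines mark the limits of 1.5 and 1.4 that chose the members, and an asterisk marks a member. Of the 6 sigma factors 4 have a circle beyond the UV-B limit and none has a square beyond the double-mutant limit. Of all 16244 genes with at least 3 CPM, 1466 and 382 met these limits.

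A second group of 8 genes served photosynthesis and chlorophyll synthesis. HEMA1 (AT1G58290, chr1:21623700-21626402, minus strand) encodes the glutamyl-tRNA reductase that starts the path to chlorophyll, and it was the most abundant member. HEMA1 had 411, 526 and 622 CPM in wild type under UV-B and 586, 515 and 579.9 CPM in pif4-101 pif5-1, against 353, 321 and 344 CPM in wild type in white light. Its log2 fold change was 0.78 ± 0.16 under UV-B and 0.78 ± 0.16 in the double mutant (edgeR, adjusted p = 0.00203 and 0.0131), and the second call was lost without double-mutant replicate 1 or 3 (adjusted p = 0.0514 and 0.0518). The double-mutant libraries lay within the range of wild type under UV-B, and all libraries of both were above those of wild type in white light. CGA1 (AT4G26150, chr4:13253084-13255106, plus strand), a GATA transcription factor that promotes chloroplast development, had the steepest differences of the 8. CGA1 had 39.9, 29.2 and 35.9 CPM in wild type under UV-B and 30.7, 22.2 and 23.8 CPM in pif4-101 pif5-1, against 7.85, 14.9 and 11.9 CPM in wild type in white light, and 14.1, 9.46 and 14.8 CPM in uvr8-6 under UV-B, against 8.32, 11.8 and 10.9 CPM in white-light uvr8-6. Here too replicate 2 was the lowest UV-B library in both genotypes and the highest in white light. Its log2 fold change was 1.78 ± 0.22 under UV-B and 1.22 ± 0.22 in the double mutant (edgeR, adjusted p = 4.03e-05 and 0.00776).

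FAD5 (AT3G15850, chr3:5358601-5361185, plus strand) desaturates palmitate on the galactolipid that makes up much of the thylakoid membrane. FAD5 had 309, 243 and 328 CPM in wild type under UV-B and 219.6, 229 and 249 CPM in pif4-101 pif5-1, against 105, 136 and 110.4 CPM in wild type in white light. Both were wholly above white-light wild type, and the log2 fold change was 1.50 ± 0.19 under UV-B and 1.05 ± 0.19 in the double mutant (edgeR, adjusted p = 5.11e-05 and 0.00765). PSB27 (AT1G03600, chr1:898480-899794, plus strand), an assembly factor of photosystem II, had 370.2, 320.3 and 422 CPM in wild type under UV-B and 382, 311 and 330.1 CPM in pif4-101 pif5-1, against 251, 234 and 216 CPM in wild type in white light. The double-mutant difference of PSB27 was 0.60 ± 0.19 on the log2 scale and was not called (edgeR, adjusted p = 0.0816). TL29, an ascorbate peroxidase-like protein of the thylakoid lumen, NDF5, a factor of the NDH complex of cyclic electron flow, RbcX1, a Rubisco assembly chaperone, and the PsbP family gene AT2G28605 were the rest of the group. Double-mutant ratios of the 8 ran from 1.44 to 2.16, and 8 were called under UV-B and 5 in pif4-101 pif5-1.

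The structural genes of photosynthesis and the other steps of chlorophyll synthesis were mostly outside the 80. Of 14 genes of chlorophyll synthesis and greening, edgeR called 8 higher and 2 lower under UV-B and 6 higher in pif4-101 pif5-1, and CGA1 and HEMA1 alone met all conditions. GUN5, a subunit of magnesium chelatase, was 1.15 higher under UV-B on the log2 scale, and its double-mutant difference of 0.54 was not called (edgeR, adjusted p = 0.104). PORA and PORB, the light-dependent protochlorophyllide reductases, fell by 4.55 and 1.69 under UV-B and were the 2 called lower. Of 17 photosynthesis genes 4 were called higher under UV-B and none in the double mutant, with median log2 differences of 0.41 and 0.51. By ratio of means, 4 of the 17 met the UV-B limit, 7 the double-mutant limit and 1 both. All 11 carotenoid genes were called higher under UV-B and 1 in pif4-101 pif5-1. Of lists for the UV-B response, 18 of 19 UV-B pathway genes and 12 of 15 flavonoid enzyme genes were called higher under UV-B, while in the double mutant none of either was called higher and 1 flavonoid gene was called lower. Of 16 genes that PIFs activate, 13 were called lower under UV-B and 9 lower in pif4-101 pif5-1. Over all genes 16.1% were called higher and 11.3% lower under UV-B, and 1.72% higher and 3.54% lower in the double mutant. At 1.72%, the lack of a higher call in lists this short says little. The 2 contrasts share the white-light wild-type libraries, so nothing is read here from how alike they are.

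The 6 members of the cell surface and cuticle had UV-B ratios of 1.51 to 3.16 and double-mutant ratios of 1.48 to 2.40, and 5 were called in the double mutant. PEL3 (AT5G23940, chr5:8076312-8079866, minus strand) is an acyltransferase needed for cutin. PEL3 had 8.42, 8.62 and 11.2 CPM in wild type under UV-B and 20.9, 8.54 and 11.02 CPM in pif4-101 pif5-1, against 5.77, 5.76 and 4.49 CPM in wild type in white light. Replicate 1 of the double mutant was far above its other libraries, and all UV-B and double-mutant values were above those of white-light wild type. The log2 fold change was 0.99 ± 0.27 under UV-B and 1.399 ± 0.27 in pif4-101 pif5-1 (edgeR, adjusted p = 0.0142 and 0.0105), and both calls were lost without white-light wild-type replicate 3 (adjusted p = 0.0710 and 0.0519). AGP17 (AT2G23130, chr2:9844134-9845385, plus strand), an arabinogalactan protein of the cell surface, had 31.6, 23.9 and 27.8 CPM in wild type under UV-B and 39.7, 28.3 and 33.4 CPM in pif4-101 pif5-1, against 18.0, 18.1 and 14.7 CPM in wild type in white light. Both sets of libraries were above those of white-light wild type, and the double-mutant log2 fold change was 1.06 ± 0.16 (edgeR, adjusted p = 0.00301). The others were FAO3, a fatty alcohol oxidase, the wall-associated kinase-like gene WAKL7 and the cysteine-rich receptor kinases CRK18 and CRK40.

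Hormone genes numbered 5, with UV-B ratios of 1.55 to 2.21 and double-mutant ratios of 1.59 to 2.03. UGT85A1 (AT1G22400, chr1:7903660-7906969, minus strand) encodes an enzyme that glucosylates the cytokinin trans-zeatin. UGT85A1 had 54.8, 37.9 and 42.3 CPM in wild type under UV-B and 45.5, 37.7 and 40.5 CPM in pif4-101 pif5-1, against 15.6, 22.8 and 21.8 CPM in wild type in white light. The double-mutant and UV-B libraries overlapped, and both were above white-light wild type. The log2 fold change was 1.34 ± 0.26 under UV-B and 1.105 ± 0.26 in the double mutant (edgeR, adjusted p = 0.00134 and 0.0239), and the second call was lost without replicate 1 or 3 of the double mutant or of white-light wild type (adjusted p = 0.0689 to 0.108). CKX7 (AT5G21482, chr5:7226606-7230304, plus strand), a cytokinin oxidase that breaks cytokinins down, had 9.67, 7.48 and 11.1 CPM in wild type under UV-B and 9.66, 5.60 and 6.94 CPM in pif4-101 pif5-1, against 4.05, 4.98 and 4.39 CPM in wild type in white light. Its log2 fold changes were 1.25 ± 0.24 under UV-B and 0.79 ± 0.24 in the double mutant (edgeR, adjusted p = 0.00152 and 0.0792). The 6 type-A response regulators tested, which cytokinin induces, are no members. In wild type 2 were called lower under UV-B (11.3% of all genes), and 4 were called higher in pif4-101 pif5-1 (1.72%). All 6 were called lower in wild type under UV-B than in the double mutant (12.7%). In uvr8-6, 2 were also called lower under UV-B (0.269%), with a median log2 difference of -0.78, against -0.50 in wild type. TAR2, an aminotransferase of auxin synthesis, the receptor gene PYL6 and the kinase gene CIPK20 were the other members with hormone roles.

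Among 4 genes of redox, metal and sulfur chemistry were the highest ratios of both contrasts. BCB (AT5G20230, chr5:6826365-6827748, plus strand) encodes a blue-copper-binding protein of the cell surface that rises in many stresses. BCB had 36.0, 53.0 and 54.2 CPM in wild type under UV-B and 17.3, 46.9 and 24.2 CPM in pif4-101 pif5-1, against 7.15, 6.02 and 11.04 CPM in wild type in white light, and 4.19, 9.14 and 4.14 CPM in uvr8-6 under UV-B, against 5.39, 5.72 and 6.37 CPM in white-light uvr8-6. Replicate 2 was far above the other libraries of pif4-101 pif5-1 and of uvr8-6 under UV-B, unlike most members. The log2 fold change was 2.72 ± 0.36 under UV-B and 1.91 ± 0.35 in the double mutant (edgeR, adjusted p = 6.01e-05 and 0.00801), and without the replicate 2 libraries the second was 1.23 ± 0.23 (adjusted p = 0.00613). MSRB6 (AT4G04840, chr4:2449434-2451651, plus strand), a methionine sulfoxide reductase that repairs oxidised methionine, had the highest UV-B ratio of the 80, 12.8. MSRB6 had 444, 496 and 335 CPM in wild type under UV-B and 30.9, 60.1 and 51.4 CPM in pif4-101 pif5-1, against 26.4, 45.8 and 26.2 CPM in wild type in white light, and 45.0, 21.9 and 47.1 CPM in uvr8-6 under UV-B, against 24.3, 49.7 and 27.3 CPM in white-light uvr8-6. Double-mutant and white-light libraries overlap, with replicate 2 the highest of both. The double-mutant log2 fold change was 0.61 ± 0.33 and was not called (edgeR, adjusted p = 0.336), and without the replicate 2 libraries it was 0.69 ± 0.20 (adjusted p = 0.0440). CS26, which makes S-sulfocysteine in the chloroplast, and NAS4, a nicotianamine synthase, were the other members of this group.

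**Figure D4:**
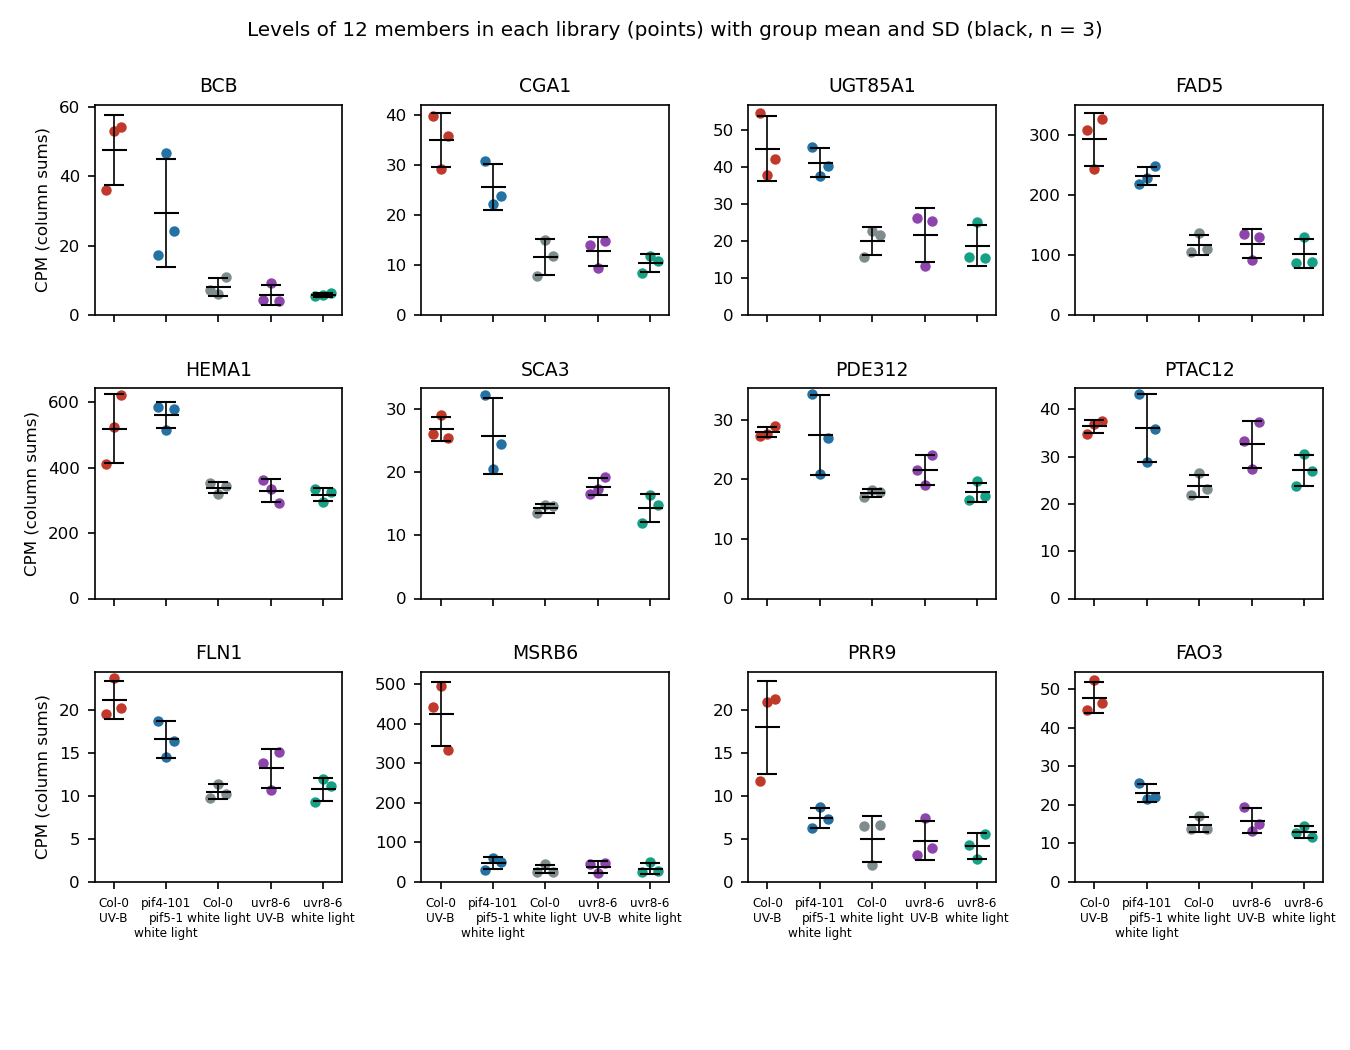
Points give the CPM of single libraries for 12 members, by group, with the mean and SD of 3 libraries in black, on axes that start at 0. MSRB6 separates wild type under UV-B, with 335 to 496 CPM, from pif4-101 pif5-1, with 30.9 to 60.1 CPM, and for HEMA1 the double-mutant libraries lie within the range of wild type under UV-B.

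The other 48 members were assigned to no group above, and several of their products are uncharacterised. Some have related product names, such as ribosomal protein L34 (AT1G29070) and a plastid-lipid associated protein (AT2G46910). The counts by role are therefore not exhaustive. AT1G76110 (chr1:28555034-28557615, minus strand), an HMG-box protein with an ARID DNA-binding domain, had 40.3, 39.5 and 46.1 CPM in wild type under UV-B and 26.5, 21.4 and 30.9 CPM in pif4-101 pif5-1, against 12.7, 14.9 and 18.2 CPM in wild type in white light. Its 3 groups were separate, in that order. AT2G29670 (chr2:12681831-12685151, minus strand), a tetratricopeptide repeat protein, had 30.2, 52.3 and 63.6 CPM in wild type under UV-B and 39.7, 37.6 and 54.4 CPM in pif4-101 pif5-1, against 23.7, 11.3 and 30.2 CPM in wild type in white light. The lowest UV-B library was level with the highest white-light library. Its double-mutant log2 fold change was 1.06 ± 0.32 (edgeR, adjusted p = 0.0716). AT4G29030 (chr4:14307195-14308022, plus strand), a putative membrane lipoprotein, had 9.91, 13.1 and 13.3 CPM in wild type under UV-B and 19.2, 8.65 and 12.2 CPM in pif4-101 pif5-1, against 5.03, 7.47 and 3.88 CPM in wild type in white light. Its log2 fold change was 1.33 ± 0.28 under UV-B and 1.37 ± 0.28 in the double mutant (edgeR, adjusted p = 0.00240 and 0.0130), and the second call was lost without replicate 1 of the double mutant or replicate 1 or 3 of white-light wild type (adjusted p = 0.0547 to 0.0592). AT5G62360 (chr5:25040540-25041504, plus strand) belongs to the invertase and pectin methylesterase inhibitors, and its difference of 1.18 ± 0.37 in the double mutant was not called (edgeR, adjusted p = 0.0840). AT3G09160 and AT3G09162 are neighbours on chromosome 3, and AT3G09160, an RNA-binding family gene, had 6.85, 5.20 and 7.75 CPM in wild type under UV-B and 5.60, 5.16 and 6.94 CPM in pif4-101 pif5-1, against 2.47, 2.85 and 3.98 CPM in wild type in white light. The lipid-transfer family genes AT4G22505 and AT4G22485 lie near each other on chromosome 4 and are members, and AT4G22505 had 48.9, 13.0 and 17.8 CPM in pif4-101 pif5-1, against 9.47, 5.03 and 10.4 CPM in wild type in white light. PRR9, a repressor of the circadian clock, was the only member among 18 clock genes. Of these 18 genes, 10 were called higher under UV-B (16.1% of all genes) and none in the double mutant (1.72%). PRR9 had 11.8, 20.9 and 21.2 CPM in wild type under UV-B and 6.28, 8.69 and 7.30 CPM in pif4-101 pif5-1, against 6.46, 1.97 and 6.65 CPM in wild type in white light. The white-light range of PRR9 was set by a low replicate 2, and its double-mutant difference of 0.59 ± 0.41 was not called (edgeR, adjusted p = 0.455). Without the replicate 2 libraries it was 0.09 ± 0.26 (edgeR, adjusted p = 0.859).

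Wild type under UV-B and pif4-101 pif5-1 in white light can be set against each other without the shared white-light libraries, a contrast the choice of genes did not use, although its libraries were used. EdgeR called 14 of the 80 higher in wild type under UV-B and none lower (17.5%, where 17.6% of all genes were called higher and 12.7% lower). The share of the members called is close to that of all genes. The estimate was positive in 72 genes and negative in 8, where 51.4% of all genes were positive, with a median of 0.24 on the log2 scale. Of the 66 genes not called, 53 had a 95% interval that lay within 1 log2 unit of 0, as did 79.6% of all genes not called. The choice placed both groups above white-light wild type by similar ratios, so their closeness and the signs are in part set by it and say nothing particular to the 80 genes. HEMA1 had a log2 difference of 0.00 ± 0.16 (edgeR, adjusted p = 0.999). The 5 steepest called differences were MSRB6 at 3.26 ± 0.36 (edgeR, adjusted p = 1.02e-05), PRR9 at 1.38 ± 0.39 (adjusted p = 0.0156), FAO3 at 1.15 ± 0.15 (adjusted p = 5.04e-05), AT2G39560 at 1.08 ± 0.25 (adjusted p = 0.00507) and AT5G22390 at 1.04 ± 0.18 (adjusted p = 0.000497). FAO3 had 44.7, 52.4 and 46.4 CPM in wild type under UV-B and 25.6, 21.6 and 22.0 CPM in pif4-101 pif5-1, against 13.7, 17.1 and 13.7 CPM in wild type in white light. The 3 groups of FAO3 were separate. AT5G22390, a FANTASTIC FOUR-like gene, had 31.9, 30.5 and 40.2 CPM in wild type under UV-B and 17.4, 16.8 and 19.5 CPM in pif4-101 pif5-1, against 11.7, 12.3 and 10.7 CPM in wild type in white light, also without overlap. The call of PRR9 was lost without wild-type UV-B replicate 3 (edgeR, adjusted p = 0.0617) or without double-mutant replicate 1 (adjusted p = 0.0539). The libraries overlapped in 63 of the 80 genes and the UV-B libraries were wholly higher in 17 (17.3% of all genes). Without the replicate 2 libraries 18 were called (16% of all genes), and 6 were called without wild-type UV-B replicate 3, 8 without double-mutant replicate 2 and 7 with upper-quartile scaling, which moves the median of all genes to -0.10.

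**Figure D5:**
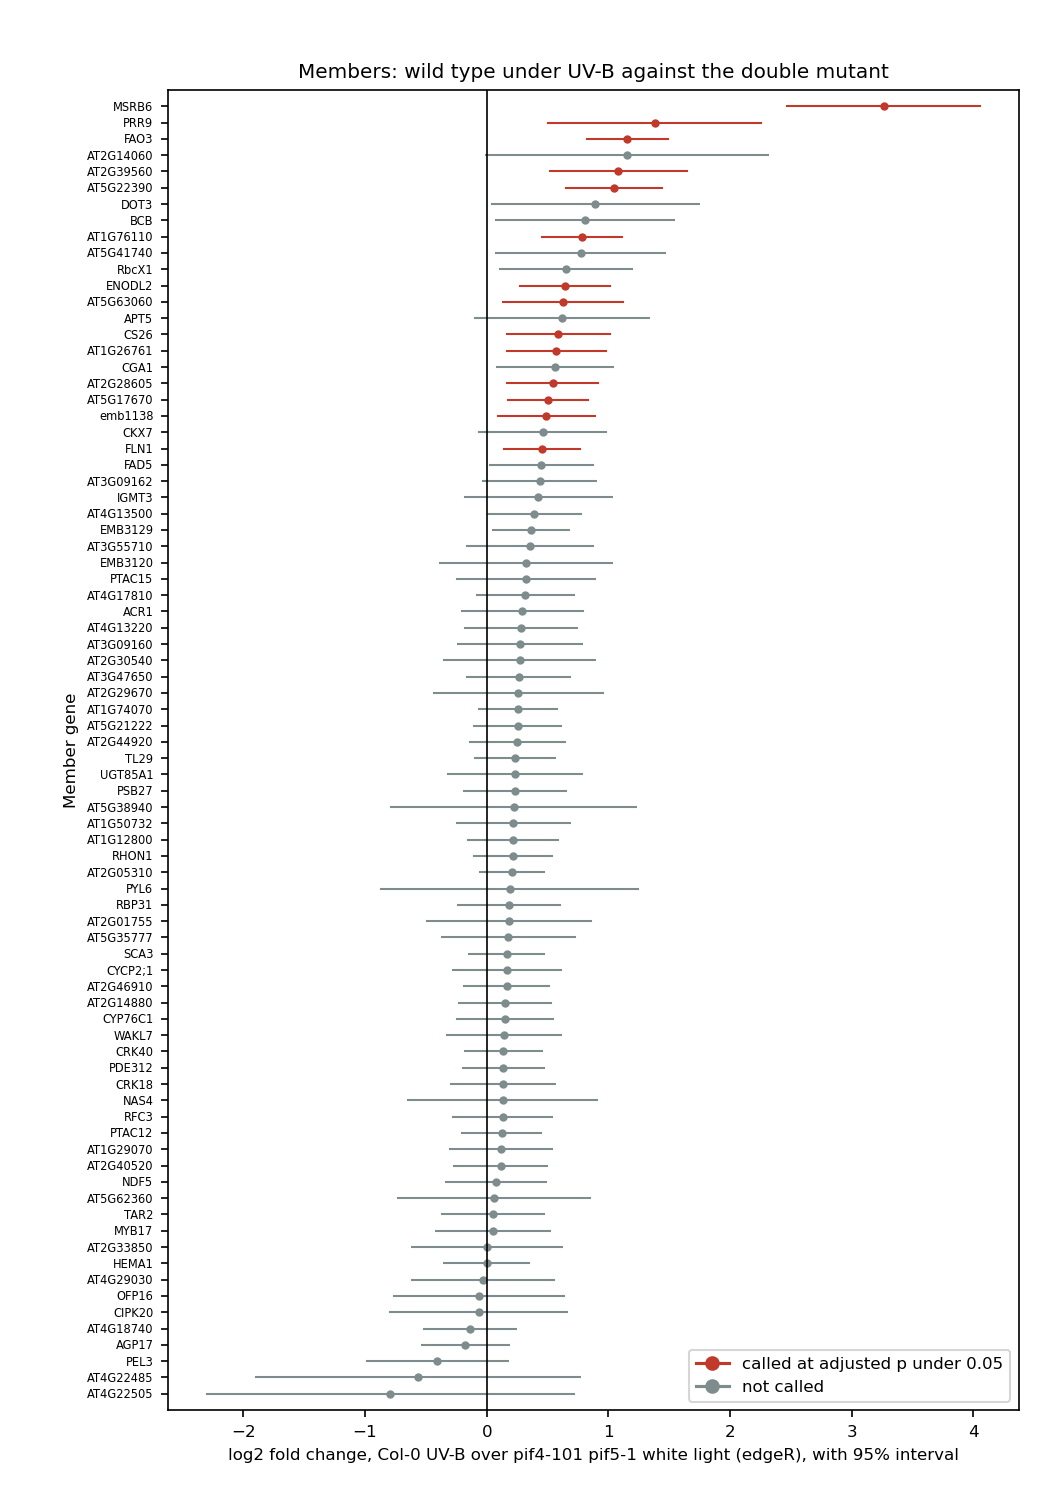
Each of the 80 genes is a point with its 95% interval, and the axis gives the log2 fold change of wild type under UV-B over pif4-101 pif5-1 in white light from edgeR. The 14 called genes lie right of 0, with MSRB6 farthest at 3.26, and 8 genes lie left of 0.

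In uvr8-6 the 80 genes had been chosen to differ little between UV-B and white light, and with all libraries edgeR called none of them (0.85% of all genes were called higher and 0.269% lower). At an unadjusted p under 0.05 there were 2 (2.5%, against 13.1% of all genes), DESeq2 called none and limma-voom none, and the median log2 difference was 0.23. The 3 UV-B libraries were wholly above the 3 white-light libraries in 7 genes (9.45% of all genes). This rests on the replicate 2 libraries. Without them edgeR called 30 of the 80 higher under UV-B in uvr8-6 and 1 lower (5.45% of all genes were called higher and 3.74% lower), and the median was 0.46. Both UV-B libraries were then above both white-light libraries in 58 of the 80 and below them in 10, where 25.8% and 30.2% of all genes were. The limit on the uvr8-6 ratio had been applied with replicate 2 included. It thus let in genes that were higher in the other UV-B libraries where replicate 2 lowered the ratio. The calls, medians and library orders of uvr8-6 without replicate 2 are therefore in part set by the choice and describe the set. FAD5 had 135, 91.1 and 131 CPM in uvr8-6 under UV-B, against 87.5, 130.2 and 88.8 CPM in white-light uvr8-6. Replicate 2 was the lowest of the UV-B libraries and the highest of the white-light libraries, so the other pair of each group lay apart while the 3 together overlapped. Without replicate 2 its log2 difference was 0.62 ± 0.11 (edgeR, adjusted p = 0.00634). emb1138 had 285, 213 and 297 CPM in uvr8-6 under UV-B, against 186, 248 and 185 CPM in white-light uvr8-6, with a log2 difference of 0.68 ± 0.11 without replicate 2 (edgeR, adjusted p = 0.00406). UGT85A1 had 26.4, 13.2 and 25.3 CPM in uvr8-6 under UV-B, against 15.7, 25.3 and 15.3 CPM in white-light uvr8-6, with 0.76 ± 0.15 without replicate 2 (edgeR, adjusted p = 0.00900). By role, the calls without replicate 2 took in 8 of 9 genes of plastid gene expression, 5 of 8 of photosynthesis, 2 of 4 of redox, metal and sulfur chemistry, 1 of 5 hormone genes and none of the 6 cell surface genes. The 1 gene called lower was IGMT3, a methyltransferase of indole glucosinolates, at -0.99 ± 0.24 (edgeR, adjusted p = 0.0269). Without replicate 2 the median log2 difference between UV-B and white light was 1.08 in wild type, and the median difference between the responses of wild type and uvr8-6 was 0.73.

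The difference between the responses of wild type and uvr8-6 has its sign set by the choice of genes, and it passed edgeR's test in 22 of the 80, all positive (4.88% of all genes), with a median of 0.84. It passed in 21 without the replicate 2 libraries (4.57%), and in 8 to 14 when single libraries were left out, namely replicate 1 or 3 of wild type in either light, replicate 2 or 3 of uvr8-6 under UV-B or any replicate of uvr8-6 in white light. UV-B-treated uvr8-6 was called lower than UV-B-treated wild type in 70 genes (14.4% of all genes). The choice took genes high in wild type under UV-B and limited the UV-B ratio of uvr8-6. It thus favoured this direction, and the count describes the set. The choice set no limit on uvr8-6 against wild type in white light, but both groups were the white-light side of its ratios, so their contrast is a description. EdgeR called none of the 80 (0% of all genes higher, 0.0144% lower). Calls were that rare over all genes, so their absence says nothing particular to the 80. An unadjusted p under 0.05 was reached by 2 (2.5%, against 1.99% of all genes), and DESeq2 and limma-voom called none. The double mutant can also be set against uvr8-6 in white light, although both groups were used in the choice, one for its level and the other as the white-light side of the uvr8-6 ratio, so this too is a description: 55 of the 80 were called higher in pif4-101 pif5-1 (5.15% of all genes), with a median of 0.76. Of the 37 genes called in both contrasts of the choice, 35 were called here. CGA1 had 30.7, 22.2 and 23.8 CPM in pif4-101 pif5-1, against 8.32, 11.8 and 10.9 CPM in white-light uvr8-6, and HEMA1 had 586, 515 and 579.9 CPM in pif4-101 pif5-1, against 334, 295 and 325 CPM in white-light uvr8-6. The double-mutant libraries of the 80 genes were wholly above those of uvr8-6 in white light in 58 genes (7.07% of all genes). Without replicate 2, 69 were called (9.12%).

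PIFs bind CACGTG (the G-box) and CACATG (the PBE-box), so both motifs were searched on both strands in the 250 bases before each gene's start in RefSeq's TAIR10.1. CACATG was found in 15 of the 80 members (18.8%, Wilson 95% interval 11.7 to 28.7%), against 10.12% of the 810 genes that met the other conditions with the double mutant in between, 14.5% of the 55 that were lower in it and 11.2% of all 20730 tested genes with such a window. CACGTG was found in 3 members (3.75%, interval 1.28 to 10.5%), against 9.38% of the 810, 9.09% of the 55 and 7.35% of all. The 3 were PRR9, AT1G26761 and CYCP2;1. The shares depend on the window: with 50 bases after the start added, CACGTG was in 6 members (7.5%, against 8.74% of all genes) and CACATG in 15 (18.8%, against 13.0%). GATAAG, the I-box core, was then in 22 (27.5%, interval 18.9 to 38.1%), against 17.7% of the 810, 9.09% of the 55 and 14.9% of all genes. Several motifs and windows were counted, and no interval was adjusted for their number. In 1000 bases, a length chosen after seeing the data, CACATG was in 45% of the members and 38.2% of all genes, and CACGTG in 16.2% and 15.9%. In the 250 bases alone GATAAG was in 16.2%, against 12.4% of all genes, and AATATCT of the evening element in 12.5%, against 10.02%, while GACGTC was in no member and in 2.39% of all genes. A match is a description of letters and shows no binding. The following are the 250 bases before the start of 4 members whose levels are described above and that hold CACATG, UGT85A1 (chr1:7906970-7907219, minus strand), PTAC12 (chr2:14584798-14585047, minus strand), PDE312 (chr3:17961830-17962079, plus strand) and MSRB6 (chr4:2449184-2449433, plus strand), each in the direction of its gene. Capitals mark CACATG or its reverse complement CATGTG, which overlap in UGT85A1.
UGT85A1: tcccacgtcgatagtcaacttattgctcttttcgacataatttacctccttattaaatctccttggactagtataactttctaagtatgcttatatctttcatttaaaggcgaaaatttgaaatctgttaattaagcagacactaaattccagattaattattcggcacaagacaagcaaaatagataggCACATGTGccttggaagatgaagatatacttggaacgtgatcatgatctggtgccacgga
PTAC12: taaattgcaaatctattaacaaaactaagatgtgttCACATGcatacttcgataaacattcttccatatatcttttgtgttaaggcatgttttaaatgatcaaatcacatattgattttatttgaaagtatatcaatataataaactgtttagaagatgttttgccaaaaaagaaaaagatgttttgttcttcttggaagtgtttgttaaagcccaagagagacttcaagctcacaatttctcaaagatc
PDE312: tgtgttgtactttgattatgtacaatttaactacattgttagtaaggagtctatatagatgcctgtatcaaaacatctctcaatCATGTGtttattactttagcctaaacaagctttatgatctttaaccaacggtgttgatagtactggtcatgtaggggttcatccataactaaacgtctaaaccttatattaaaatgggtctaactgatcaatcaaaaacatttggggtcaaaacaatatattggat
MSRB6: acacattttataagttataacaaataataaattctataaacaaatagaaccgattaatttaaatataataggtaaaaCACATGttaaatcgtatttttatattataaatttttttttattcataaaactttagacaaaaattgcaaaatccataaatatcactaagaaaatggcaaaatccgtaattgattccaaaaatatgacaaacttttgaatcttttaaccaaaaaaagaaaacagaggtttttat

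RefSeq lists 79 of the 80 genes as protein coding and 1, AT5G35777, as a pseudogene, and 43 carry a symbol. They lie on all 5 chromosomes, with 14, 19, 13, 17 and 17 genes on chromosomes 1 to 5. Product names with a word for the plastid or photosynthesis were given to 5 (6.25%), against 3.49% of the 810 genes and 1.02% of all tested genes. This count of words misses members with plastid roles above, such as SCA3 and HEMA1, whose product names hold no such word. The median gene span was 1960 bases, against 2378 bases over all tested genes. For 13 members the gene overlaps another counted gene, and whether the counting used strand is not given, so reads of a partner could enter their values.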

How the data were processed

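The deposited count table gives unscaled read counts, 1 column for each library, as the authors made them. The build TAIR10 and the tools edgeR 3.22.3, HTSeq 0.9.1, STAR 2.5.3a and FastQC 0.11.5 are named in the submitters' processing notes, which do not say what each was used for. Per the labels' protocols, 400 ng of RNA from 30 whole seedlings was made into stranded mRNA libraries and sequenced as 100 bp single-end reads. Whether the counting used strand is not given in the sources used here. A second deposited table with normalized values was not used here.

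The 15 libraries formed 5 groups of 3 by sample title. The libraries held 19.3 to 30.4 M reads. Members were chosen on CPM on column sums, with 0.5 CPM added to group means. The members, lists, roles and comparisons were chosen with earlier results of these data known. All genes were tested in 1 model with a term per group on 15 libraries, with edgeR 4.0.16's filterByExpr (20833 genes), TMM scaling (factors 0.863 to 1.11) and its quasi-likelihood F test in R 4.3.3 on 10 residual degrees of freedom. P values were two-sided and adjusted by Benjamini-Hochberg over all tested genes, with calls at an adjusted p under 0.05. Errors of fold changes are standard errors of the fit, and p-values measure the spread between plates. Alternatives were other scalings, no filter, DESeq2 1.42.0, limma-voom (limma 3.58.1), a block for the replicate number, fits of the compared groups alone and each library left out. The removal of all 5 replicate 2 libraries and a 1000-base promoter window were added after seeing the data. Deviations of equal-numbered libraries correlated at 0.33, 0.60 and 0.39 between the white-light libraries of uvr8-6 and wild type, and at 0.16, 0.19 and 0.14 between the double mutant and uvr8-6. With a replicate block edgeR called 0 and 54 of the 80 genes there, against 0 and 55 without it. The labels name no pairs. Libraries of unequal number were not correlated, so whether the numbers mark pairs was not tested. The script was tested on simulated counts.

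Genes were named by rule: the 12 members highest by the lesser of their 2 log2 ratios, the 5 most abundant, members of the clock and greening lists, the 5 steepest called differences between wild type under UV-B and the double mutant, members nearest each limit and the targeted genes. Genes grouped by role and those lost or gained without replicate 2 were named after their values were seen. Gene names, coordinates and the 250 bases before gene starts came from RefSeq's TAIR10.1, and motifs were counted with Python 3.11.15. Wilson 95% intervals (scipy 1.17.1) cover counting error only.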

Additional observations from a re-analysis of the deposited data

Results flagged for a closer look

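The UV-B responses of wild type and uvr8-6 differed by edgeR's interaction test in 22 of the 80 genes (4.88% of all genes in that direction), with the wild-type response the greater in all 22. The choice of genes required a response in wild type and a small one in uvr8-6, so the sign was set beforehand and the count describes the set.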

How the results depend on the processing

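Numbers of the 80 genes called by edgeR kept within 1.5 times of the values reported under most scalings, filters and tools, and no result changed direction. The exceptions were these. In pif4-101 pif5-1 against wild type 37 genes were called, and 57 by DESeq2, 12 with the compared groups alone, 68 without all 5 replicate 2 libraries and 9 to 45 with 1 library left out. Higher calls over all genes moved too, from 358 to 731 by DESeq2, 57 with the compared groups alone and 1326 without the replicate 2 libraries. Between wild type under UV-B and the double mutant 14 were called, 7 with upper-quartile scaling and 6 to 16 with 1 library left out. Between UV-B and white light in uvr8-6 none was called, also with any 1 library left out (0 to 0), and 31 without all 5 replicate 2 libraries. The choice of genes limited the uvr8-6 ratio with replicate 2 included, so the 31 are in part set by it. The difference of responses was called in 22, in 10 with upper-quartile scaling, in 34 by DESeq2 and in 8 to 19 with 1 library left out. Under UV-B in wild type 62 to 73 were called with 1 library left out. The set held 153 genes when CPM was taken on TMM library sizes, 79 of them among the 80, and 49 to 187 with 1 library left out. The smaller number of libraries is part of each left-out result, and otherwise the cause was not tested. For single named genes 602 of 658 alternatives kept the call or its absence, 32 lost it and 24 gained one, and both promoter shares moved in the 1000-base window.

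The main fits took replicate numbers to pair libraries in no comparison, and whether they mark pairs was not tested. Deviations of equal-numbered libraries correlated at -0.32, -0.17 and 0.13 between wild type under UV-B and in white light, and at 0.08, 0.19 and 0.17 between the double mutant and wild type. The values were -0.02, 0.29 and -0.10 between wild type under UV-B and the double mutant. They were 0.01, -0.28 and -0.22 between uvr8-6 under UV-B and in white light, and 0.26, 0.38 and -0.02 between uvr8-6 and wild type under UV-B. With a replicate block edgeR called 74 genes under UV-B, 41 in the double mutant, 17 between these, none in uvr8-6 (0), 27 for the difference of responses and 70 between the genotypes under UV-B. It changed no count of calls by over 1.5 times. Counts of single libraries limit the least abundant members, which were near 3 CPM.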
